A study of Mus musculus with 12 samples.

Results

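Chemokine ligands are small secreted proteins that direct the movement of leukocytes, and 10 of their genes were followed across bone marrow macrophages and monocytes: Ccl2, Ccl3, Ccl4, Ccl5, Ccl6, Ccl9, Ccl24, Cxcl2, Cxcl12 and Cxcl16. They were chosen by name and matched by mouse symbol to 10 of the 56953 Ensembl genes in the deposited count and TPM (a transcript level scaled by gene length and library sum) tables. The RNA was that of sorted marrow cells; the mice were C57BL/6J females at 8 weeks with the genotype Rank cre/+; R26.eYFP fl/+, which all 4 groups share. In such mice Cre is made from the Rank locus and turns on a Rosa26 eYFP reporter. As the study states, adult blood stem and progenitor cells do not express this Cre, so that eYFP marks macrophages of embryonic origin. The 12 libraries were 3 of eYFP+ macrophages (embryonic), 3 of eYFP- macrophages (adult-derived), 3 of Ly6Chi monocytes and 3 of Ly6Clo monocytes. Macrophages were gated as F4/80hi cells with CD206 and VCAM1, then split by eYFP. The sources used here do not say whether libraries with the same replicate number share a mouse, so p-values measure the spread between these libraries only.

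Chemokines are grouped by the spacing of their first cysteines into CC ligands (Ccl genes) and CXC ligands (Cxcl genes), and they signal through G-protein-coupled receptors on the responding cell. CCL2 acts on CCR2 and draws monocytes out of the bone marrow. CXCL12, made in marrow mainly by stromal cells, acts on CXCR4 and holds blood stem cells and leukocytes there. Macrophages and monocytes both make and sense chemokines.

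Of the members, 7 lie on mouse chromosome 11, in the order Cxcl16, Ccl2, Ccl5, Ccl9, Ccl6, Ccl3 and Ccl4, while Cxcl2 and Ccl24 lie on chromosome 5 and Cxcl12 on chromosome 6 (GENCODE annotation of GRCm38, an older build than that of the counts). Ccl6 and Ccl9 are neighbours on the minus strand, and they were the 2 most abundant members in monocytes. For this reason the 100 bases before their start sites are shown, from RefSeq (GRCm38.p6), with their longest shared run in capitals. The stretch before Cxcl2, the least abundant member in macrophages, stands below them with its NF-kB motif matches in capitals. Ccl6 is given from chr11:83593088-83593187 (minus strand), Ccl9 from chr11:83578637-83578736 (minus strand) and Cxcl2 from chr5:90903799-90903898 (plus strand).
Ccl6: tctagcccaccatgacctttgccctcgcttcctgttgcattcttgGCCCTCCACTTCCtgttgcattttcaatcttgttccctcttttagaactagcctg
Ccl9: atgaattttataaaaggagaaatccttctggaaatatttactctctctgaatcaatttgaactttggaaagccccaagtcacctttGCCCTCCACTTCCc
Cxcl2: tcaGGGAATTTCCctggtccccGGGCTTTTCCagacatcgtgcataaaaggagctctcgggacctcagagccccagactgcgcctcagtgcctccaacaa

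The run shared by Ccl6 and Ccl9 is 13 bases long and begins 55 bases before the Ccl6 start and 14 bases before the Ccl9 start. It is found, on either strand, in 5 of 32851 RefSeq promoters of 250 bases (0.0152%). These include Ccl6 and Ccl9 themselves, from which the run was picked, so the share is no test of a shared control. Promoters were given for 5 of the 10 members (Ccl3, Ccl6, Ccl9, Cxcl2 and Cxcl12), and their 250 bases were searched on both strands for 4 motifs. The NF-kB motif was found before Cxcl2 at 97 and at 78 bases, and once before Ccl9, on the opposite strand at 35 bases; 1.41% of all promoters hold it. The ETS motif AGGAAGT was found before Ccl6 alone, at 48 bases on the opposite strand, where it overlaps the shared run, and 7.69% of promoters hold it. The TATA motif TATAAA was found only before Ccl9, on the opposite strand at 224 and 94 bases and on the gene's own strand at 92 bases, where it overlaps its neighbour (12.4% of promoters). The C/EBP motif TTGCNNAA (9.56% of promoters) was found before none of these genes, and Ccl3 and Cxcl12 held no match to any of the 4. A match of letters is a description and does not show that a factor binds.

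Library depth ran from 26390927 to 48618187 counts, and 16434 to 27634 genes had a count. The sorting markers followed the labels: Vcam1 was at 8960 to 14400 TPM in macrophages against 14.4 to 90.2 TPM in monocytes, and Ly6c2 was at 5810 to 6960 TPM in Ly6Chi monocytes against at most 77.5 TPM in all other libraries. Ly6Clo replicate 2 stood apart, with a Pearson r across genes of 0.8588 and 0.8613 with the other Ly6Clo libraries, which had 0.9446 with each other. In that library the genes richest in GC (at least 57.2%) were at a median of -1.41 on the log2 scale to its group, and in eYFP+ replicate 1 at a median of -0.711. The members' longest transcripts have 42.1% to 52.8% GC, below that bound, and values without these libraries are given where they matter. Ly6Chi replicate 1 stood apart from its group in Cxcl12 and in the stromal marker Adipoq.

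The 10 ligands together took 806 to 1050 TPM in the 6 macrophage libraries and 2900 to 5020 TPM in the 6 monocyte libraries. As a share of all transcripts this was 0.0806% to 0.105% in macrophages and 0.29% to 0.502% in monocytes, with no overlap. In sorted bulk samples, fewer cells of a type and less RNA per cell cannot be told apart. Ccl6 alone made up 69.3% to 87.3% of the ligand sum in every library. Ccl9 added 20.1% to 20.8% in Ly6Chi and 4.83% to 16.2% in Ly6Clo monocytes, but 0.549% to 1.97% in macrophages.

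**Figure D1:**
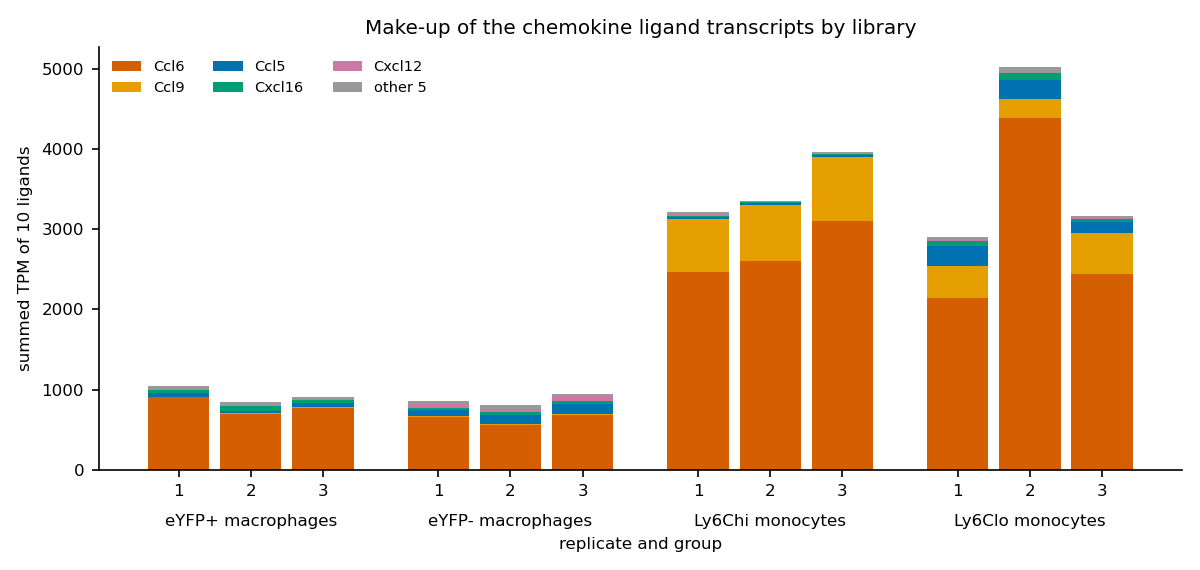
Summed TPM of the 10 ligands in each of the 12 libraries (bars, linear axis from 0), split by gene, with the replicate number and group on the horizontal axis. Macrophage bars end between 806 and 1050 TPM and monocyte bars between 2900 and 5020 TPM, and Ccl6 fills most of each bar.

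The order of levels below Ccl6 differed between groups. In eYFP+ macrophages Cxcl16 (49.5 ± 10.4 TPM, SD, n = 3) and Ccl5 (42.5 ± 8.31 TPM) came next, and their ranges overlapped. Ccl4 followed at 17.0 ± 2.88 TPM. Below it Ccl9, Ccl2 and Cxcl12 lay within each other's spread, with 1 Ccl2 value inside the Ccl4 range, at 9.90 ± 3.59, 9.52 ± 7.60 and 8.95 ± 3.73 TPM. In eYFP- macrophages Ccl5 (104 ± 24.8 TPM) came next, followed by Cxcl12 (47.8 ± 14.4 TPM), and the range of Cxcl12 overlapped that of Cxcl16 (31.5 ± 4.62 TPM). In Ly6Chi monocytes Ccl9 (716 ± 73.0 TPM) was far above Ccl5 (29.8 ± 2.1 TPM), the next in order, which Ccl2 followed (12.0 ± 2.11 TPM). In Ly6Clo monocytes Ccl9 (385 ± 135 TPM) and Ccl5 (207 ± 64.6 TPM) overlapped in range, and Cxcl16 (63.4 ± 27 TPM) came after them. By group mean Cxcl2 and Ccl24 were the lowest 2 members in Ly6Chi and Ly6Clo monocytes and in eYFP- macrophages, but the Ly6Chi mean of Cxcl12 rests on replicate 1, and in Ly6Chi replicate 2 Cxcl12 (0.428 TPM) was the lowest member.

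**Figure D2:**
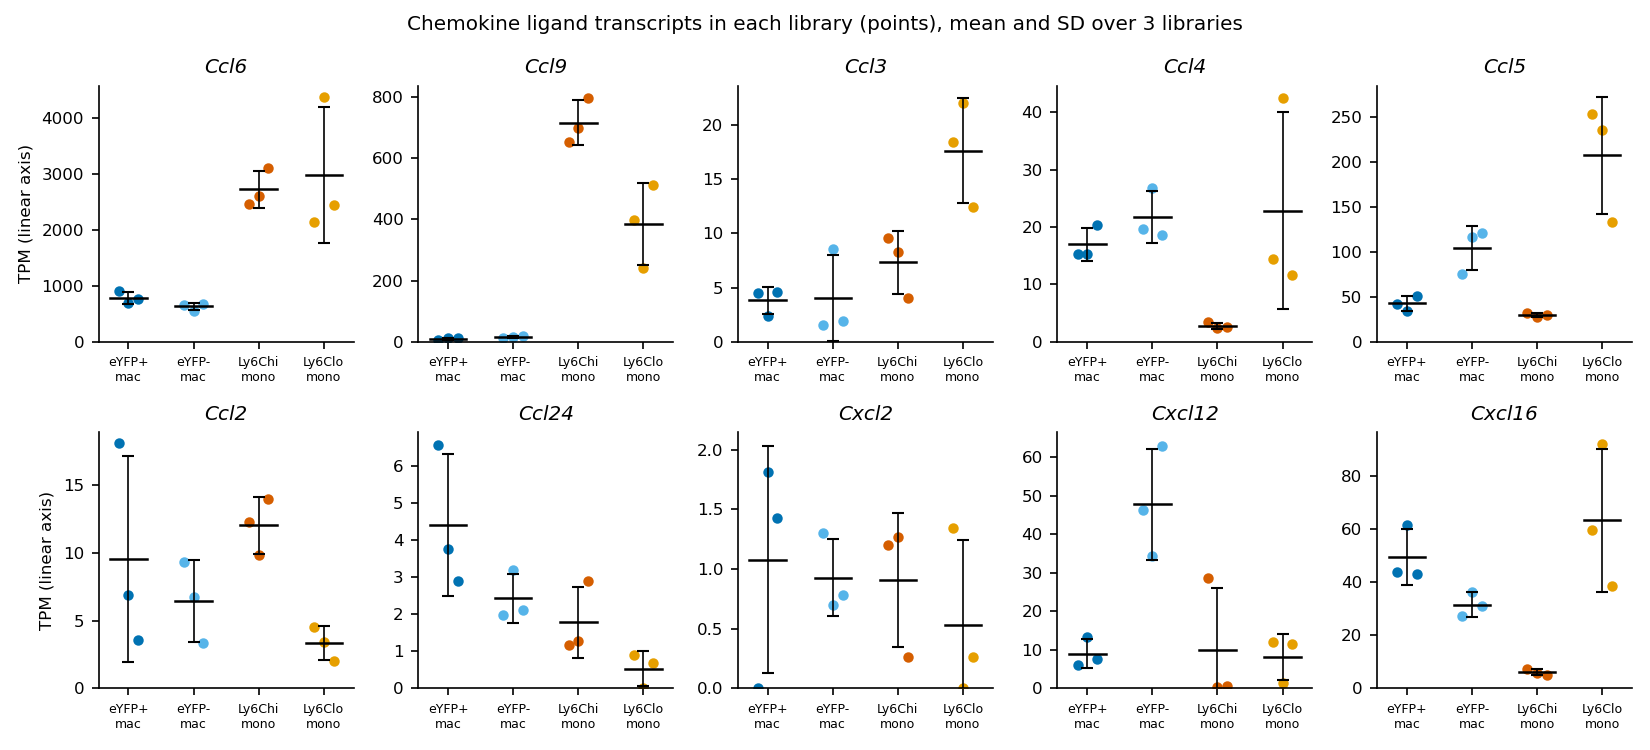
TPM of each ligand (linear axes from 0, each with its own scale) in the 4 groups; points are libraries, the horizontal line is the mean and the bar 1 SD over 3 libraries. Ccl6 and Ccl9 are higher in all 6 monocyte libraries than in any macrophage library, while Ccl4 and Cxcl16 are lowest in Ly6Chi monocytes.

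The 3 comparisons were read over all genes with DESeq2 (adjusted p under 0.05 by Benjamini-Hochberg), and edgeR's quasi-likelihood test was run as a second reading. Between macrophages and monocytes 6 of the 10 ligands passed, 3 higher in macrophages (Ccl4, Ccl24, Cxcl16) and 3 lower (Ccl3, Ccl6, Ccl9). Of all genes tested, 35.4% passed in this comparison, 20.3% higher and 15% lower, and edgeR called 5 ligands against 35.6% of all genes. Between the monocyte groups 4 ligands passed, Ccl2 higher in Ly6Chi and Ccl4, Ccl5 and Cxcl16 lower, where 8.62% of all genes passed (3.66% higher and 4.97% lower). There edgeR called 3 ligands, without Ccl2, against 4.32% of all genes. Between eYFP+ and eYFP- macrophages 1 ligand passed, Ccl5, lower in eYFP+, where 2.04% of all genes passed (0.153% higher and 1.88% lower, so that most calls were lower in eYFP+); edgeR called 0 ligands there (2 at an unadjusted p under 0.05, Ccl5 and Cxcl16) and 0.334% of all genes. The members' median log2 difference was 0.35 in macrophages minus monocytes, 0.08 in Ly6Chi minus Ly6Clo and 0.10 in eYFP+ minus eYFP-, beside medians over all tested genes of 0.08, 0.02 and 0.05.

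**Figure D3:**
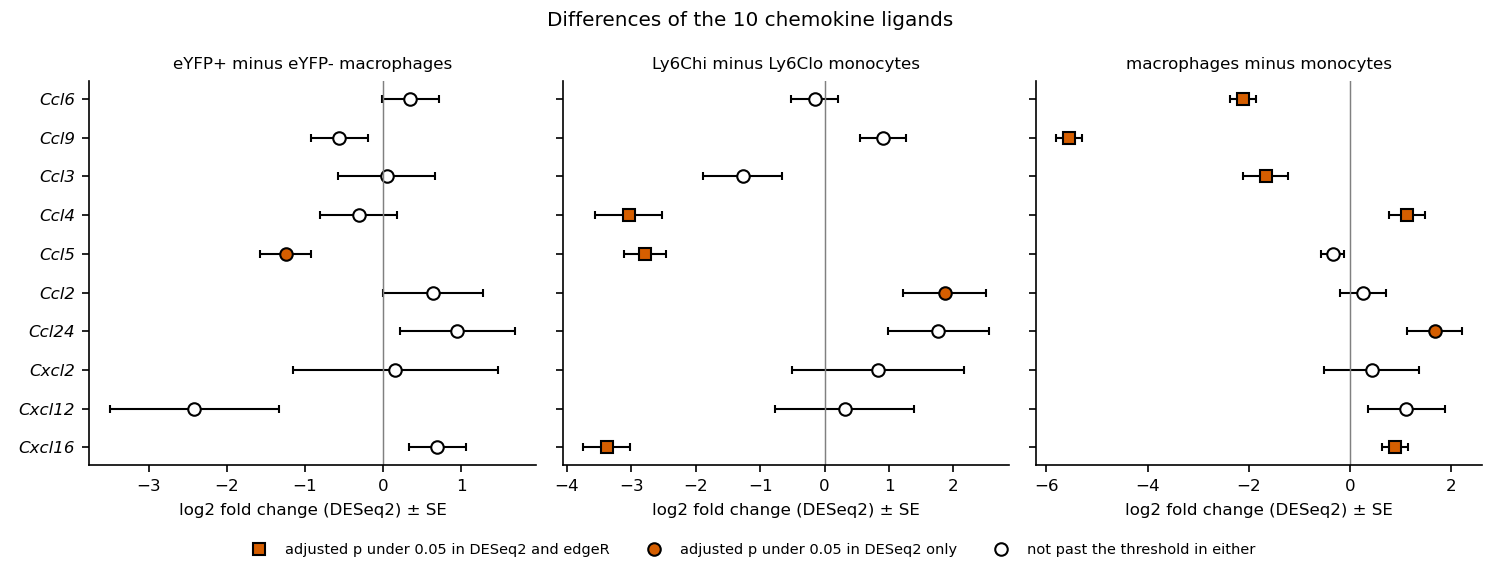
Log2 fold changes from DESeq2 with their standard errors (horizontal axes) for the 10 ligands in the 3 comparisons, coloured where the adjusted p is under 0.05 and square where edgeR gives the same. Ccl9 has the largest difference, -5.55 on the log2 scale in macrophages minus monocytes.

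Against each monocyte group alone, 4 ligands passed in eYFP+ macrophages minus Ly6Chi monocytes (24.5% of all genes passed), 5 in eYFP+ macrophages minus Ly6Clo (28%), 5 in eYFP- macrophages minus Ly6Chi (27.4%) and 6 in eYFP- macrophages minus Ly6Clo (26.3%), of which Ccl24 did not pass with edgeR (adjusted p = 0.137). These comparisons share libraries with each other and with those above. Ccl6 and Ccl9 passed as lower in macrophages in each of them. Ccl4 and Cxcl16 passed as higher in both macrophage groups than in Ly6Chi monocytes. Against Ly6Clo monocytes Ccl4 did not pass (log2 difference -0.55 ± 0.50, SE, in eYFP+ and -0.23 ± 0.50 in eYFP- macrophages, DESeq2 adjusted p = 0.457 and 0.788), and Cxcl16 was lower in eYFP- macrophages (-1.15 ± 0.37, DESeq2 adjusted p = 0.00947) with -0.45 ± 0.37 in eYFP+ (DESeq2 adjusted p = 0.394).

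Ccl6 (ENSMUSG00000018927), a rodent CC chemokine of myeloid cells that acts through CCR1, was the most abundant ligand in every library. It measured 907, 693 and 768 TPM in eYFP+ macrophages, 662, 559 and 684 TPM in eYFP- macrophages, 2467, 2598 and 3100 TPM in Ly6Chi monocytes and 2137, 4384 and 2443 TPM in Ly6Clo monocytes. All 6 monocyte libraries were above all 6 macrophage libraries. In macrophages Ccl6 was lower, with a log2 difference of -2.11 ± 0.26 (SE) or 4.31-fold (DESeq2 adjusted p = 4.42e-15). Neither pair of like cells differed beyond the spread, with 0.35 ± 0.36 for eYFP+ minus eYFP- and -0.15 ± 0.36 for Ly6Chi minus Ly6Clo (DESeq2 adjusted p = 1 and 0.872).

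Ccl9 (ENSMUSG00000019122), also a CCR1 ligand, was a transcript of monocytes in these libraries. It measured 5.76, 12.1 and 11.8 TPM in eYFP+ macrophages and 10.9, 14.8 and 18.6 TPM in eYFP- macrophages. In monocytes it measured 654, 699 and 797 TPM (Ly6Chi) and 399, 243 and 512 TPM (Ly6Clo), so that no macrophage library came near a monocyte library. The difference was -5.55 ± 0.26 (SE, log2) in macrophages minus monocytes, 47.0-fold (DESeq2 adjusted p = 3.73e-102). Every Ly6Chi library was above every Ly6Clo library, but the difference, 0.91 ± 0.36, did not pass (DESeq2 adjusted p = 0.0982). Without Ly6Clo replicate 3 it was 1.18 and passed (DESeq2 adjusted p = 0.0244). In that library 7 markers of eosinophils, basophils and mast cells summed to 561 TPM, against 5.51 TPM in Ly6Clo replicate 1 and 0 in replicate 2. Their part in the Ccl9 values was not tested. In eYFP+ minus eYFP- macrophages the Ccl9 difference was -0.56 ± 0.36 (DESeq2 adjusted p = 0.804).

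Ccl3 (ENSMUSG00000000982) and Ccl4 (ENSMUSG00000018930) lie next to each other and encode inflammatory chemokines that attract monocytes and lymphocytes, the former in part through CCR1. Ccl3 measured 4.47, 2.42 and 4.58 TPM in eYFP+ macrophages, 1.54, 8.59 and 1.93 TPM in eYFP- macrophages, 9.61, 8.28 and 4.05 TPM in Ly6Chi monocytes and 18.4, 22.0 and 12.4 TPM in Ly6Clo monocytes. The Ly6Clo libraries were the highest, and the other groups overlapped. Ccl3 was lower in macrophages than in monocytes, with a log2 difference of -1.67 ± 0.44 (SE; DESeq2 adjusted p = 0.000678), (-2.20 without eYFP- replicate 2, DESeq2 adjusted p = 2.74e-08), and the Ly6Chi minus Ly6Clo difference of -1.27 ± 0.61 did not pass (DESeq2 adjusted p = 0.206).

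Ccl4 followed another order than its neighbour. It measured 15.3, 15.4 and 20.3 TPM in eYFP+ macrophages, 19.6, 26.9 and 18.6 TPM in eYFP- macrophages, 3.41, 2.40 and 2.66 TPM in Ly6Chi monocytes and 14.4, 42.6 and 11.7 TPM in Ly6Clo monocytes. Ly6Chi monocytes were below all other libraries, and Ly6Clo replicate 2 was the highest of the 12. Ccl4 was lower in Ly6Chi than in Ly6Clo monocytes, with a log2 difference of -3.04 ± 0.51 (SE) or 8.25-fold (DESeq2 adjusted p = 3.06e-07). Without Ly6Clo replicate 2 that difference was -2.16 (DESeq2 adjusted p = 3.28e-09). Ccl4 was 1.13 ± 0.36 higher in macrophages than in monocytes (DESeq2 adjusted p = 0.00608), a call that was lost after a correction for GC content (0.72, adjusted p = 0.196).

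Ccl5 (ENSMUSG00000035042), which attracts T cells, NK cells and monocytes, was the 1 ligand that DESeq2 called between the macrophage groups. It measured 42.5, 34.2 and 50.9 TPM in eYFP+ macrophages and 75.8, 116 and 121 TPM in eYFP- macrophages. It measured 31.9, 27.7 and 29.8 TPM in Ly6Chi monocytes and 253, 235 and 133 TPM in Ly6Clo monocytes. Neither the macrophage groups nor the monocyte groups overlapped. Ccl5 was lower in eYFP+ than in eYFP- macrophages, with a log2 difference of -1.25 ± 0.32 (SE) or 2.37-fold (DESeq2 adjusted p = 0.00888). The call was lost with edgeR (adjusted p = 0.0983), after a correction for GC content (-1.02, DESeq2 adjusted p = 0.434), and without eYFP+ replicate 2 (DESeq2 adjusted p = 0.104) or eYFP- replicate 3 (DESeq2 adjusted p = 0.154). In Ly6Chi minus Ly6Clo monocytes the difference was -2.79 ± 0.32, or 6.92-fold (DESeq2 adjusted p = 1.55e-15).

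Markers of T and NK cells were read beside Ccl5. The summed TPM of 10 such markers, higher in eYFP- than in eYFP+ macrophages and in Ly6Clo than in Ly6Chi monocytes as Ccl5 was, but lower in eYFP+ macrophages than in Ly6Chi monocytes, was 7.73 to 23.6 in eYFP+ and 65.5 to 132 in eYFP- macrophages, and 30.9 to 53.4 in Ly6Chi and 69.1 to 105 in Ly6Clo monocytes. In eYFP+ macrophages 2 of these 10 markers were called lower than in eYFP- macrophages, where 1.88% of all genes were lower. They were Nkg7, of cytotoxic granules (4.32, 5.98 and 6.20 against 38.3, 56.3 and 78.5 TPM), and Klrd1, an NK receptor subunit (0.319, 1.12 and 1.87 against 2.73, 12.3 and 5.70 TPM). With edgeR the adjusted p was 0.00201 for Nkg7 and 0.105 for Klrd1. Between monocytes the same pair lay opposite ways, with Nkg7 at 27.7 to 50.1 TPM in Ly6Chi against 10.2 to 10.5 TPM in Ly6Clo and Klrd1 at 1.70 to 2.40 against 42.6 to 76.8 TPM. Klrd1 thus made up most of the Ly6Clo sum and Nkg7 most of the Ly6Chi sum. The higher marker sum in Ly6Clo than in Ly6Chi monocytes rested on Klrd1. Cd3e, a defining subunit of the T cell receptor complex, was at or below 0.594 TPM in all 12 libraries and at 0 in 2 Ly6Clo libraries. Their part in the Ccl5 difference was not tested.

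**Figure D4:**
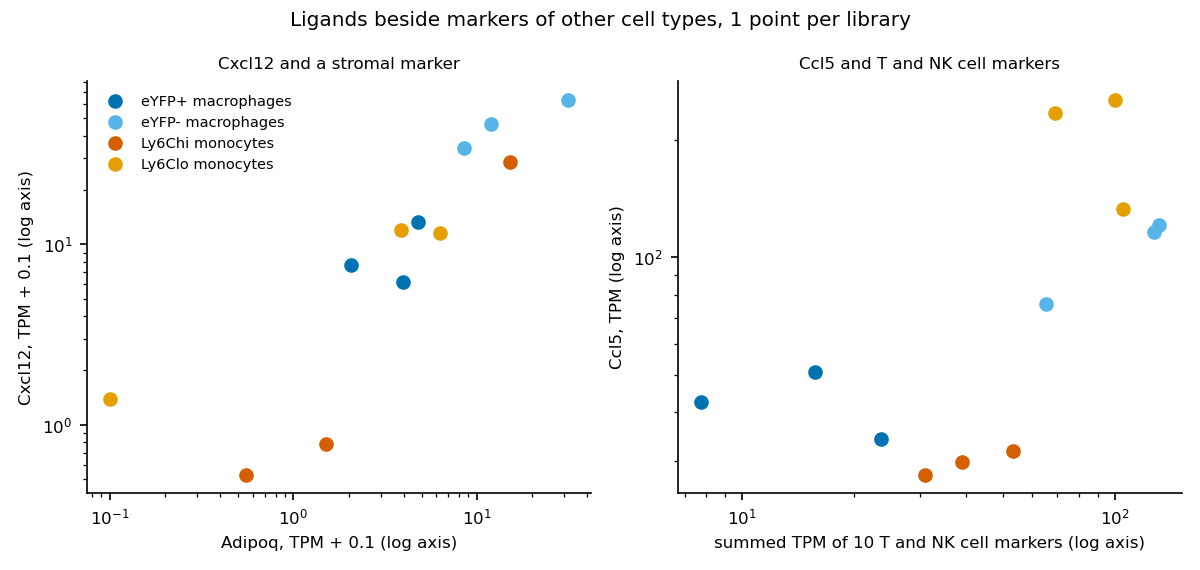
Left, Cxcl12 against the stromal marker Adipoq in TPM + 0.1, and right, Ccl5 in TPM against the summed TPM of 10 T and NK cell markers (all axes logarithmic); each point is a library, coloured by group. The highest Cxcl12 values and the highest Adipoq values are in the 3 eYFP- macrophage libraries and Ly6Chi replicate 1.

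Ccl2 (ENSMUSG00000035385), the main ligand of CCR2, measured 18.1, 6.91 and 3.56 TPM in eYFP+ macrophages, 9.33, 6.77 and 3.32 TPM in eYFP- macrophages, 12.3, 9.82 and 14 TPM in Ly6Chi monocytes and 4.56, 3.40 and 2.04 TPM in Ly6Clo monocytes. The monocyte groups did not overlap, and the macrophage libraries spread across both. Ccl2 was 1.87 ± 0.64 (SE) higher on the log2 scale in Ly6Chi than in Ly6Clo monocytes (DESeq2 adjusted p = 0.0442). This call was close to the threshold: edgeR gave an adjusted p of 0.133, over all alternatives the adjusted p ran from 0.00455 to 0.178, and it was lost on leaving out any of 7 libraries (eYFP+ replicate 2, eYFP- replicate 2, each Ly6Chi library, Ly6Clo replicate 2 or Ly6Clo replicate 3), where it ran from 0.0544 to 0.178. In eYFP+ minus eYFP- macrophages the difference was 0.64 ± 0.64 (DESeq2 adjusted p = 0.997), and without eYFP+ replicate 1, its highest library, -0.36 (DESeq2 adjusted p = 1).

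Ccl24 (ENSMUSG00000004814), an eotaxin that acts on CCR3, was low. It measured 6.58, 3.76 and 2.90 TPM in eYFP+ macrophages, 1.99, 3.19 and 2.12 TPM in eYFP- macrophages, 1.18, 1.27 and 2.89 TPM in Ly6Chi monocytes and 0.909, 0 and 0.678 TPM in Ly6Clo monocytes. The 0 in Ly6Clo replicate 2, the shallowest library, allows up to 3 counts if reads are independent, and more if they are not. Ccl24 was 1.67 ± 0.54 (SE) higher on the log2 scale in macrophages than in monocytes (DESeq2 adjusted p = 0.00711), with an adjusted p of 0.0667 by edgeR. The macrophage and monocyte ranges touched only at Ly6Chi replicate 3.

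Cxcl2 (ENSMUSG00000058427), which draws neutrophils through CXCR2 and is induced in activated macrophages, was at 1.81 TPM or less in every library, from 0 to 40 counts. It had 0 counts in eYFP+ replicate 1 and in Ly6Clo replicate 2, each of which allows up to 3 if reads are independent. Reads of amplified cDNA need not be, so that bound may be too low. No comparison passed, and the standard errors were wide: the log2 difference was 0.16 ± 1.31 (SE) in eYFP+ minus eYFP- macrophages and 0.43 ± 0.94 in macrophages minus monocytes (DESeq2 adjusted p = 1 and 0.774). With standard errors this wide, a difference of this gene could have been missed.

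Cxcl12 (ENSMUSG00000061353) measured 6.07, 13.2 and 7.62 TPM in eYFP+ macrophages and 46.2, 34.2 and 62.9 TPM in eYFP- macrophages. In Ly6Chi monocytes it measured 28.6, 0.428 and 0.686 TPM and in Ly6Clo monocytes 11.9, 1.29 and 11.4 TPM. In TPM every eYFP- macrophage library was above the other 9, while in normalized counts Ly6Chi replicate 1 (3336) lay just above eYFP- replicate 2 (3331). The monocyte libraries were far apart within each group. The eYFP+ minus eYFP- difference was -2.41 ± 1.08 (SE) on the log2 scale, 5.33-fold lower, and did not pass (DESeq2 adjusted p = 0.414, edgeR adjusted p = 0.786). Its standard error came from all 4 groups: fitted on the 6 macrophage libraries alone the difference was -2.42 (DESeq2 adjusted p = 1.64e-07), and without Ly6Chi replicate 1 it was -2.41 (DESeq2 adjusted p = 0.0181). Leaving out Ly6Chi replicate 1 also turned the Ly6Chi minus Ly6Clo difference from 0.31 to -3.84 (DESeq2 adjusted p = 2.34e-05) and raised the macrophages minus monocytes difference from 1.12 to 3.19 (DESeq2 adjusted p = 2.38e-09).

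Among the 11 stromal and endothelial markers, Adipoq, Lepr, Col1a2, Emcn, Cdh5 and Foxc1 were higher in each eYFP- than in each eYFP+ macrophage library, as Cxcl12 was, and the other 5 were not. Of the 36915 genes with a TPM above 0 in a macrophage library, 6.09% had each eYFP- library above each eYFP+ library. None of the 9 markers tested passed there. Adipoq, which marks the Cxcl12-rich stromal cells of marrow, measured 3.87, 4.66 and 1.96 TPM in eYFP+ and 11.8, 8.42 and 31.4 TPM in eYFP- macrophages. In monocytes it measured 15.1, 0.454 and 1.40 TPM (Ly6Chi) and 3.78, 0 and 6.23 TPM (Ly6Clo), with the highest value in the same Ly6Chi library as Cxcl12. Lepr, the leptin receptor of the same cells, was at 0.125 to 0.299 TPM in eYFP+ and 1.01 to 2.46 TPM in eYFP- macrophages. Col1a2, a collagen gene, was at 1.52 to 1.85 TPM in eYFP- and 0.389 to 1.48 TPM in eYFP+ macrophages and at 1.06, 0.0329 and 0.0438 TPM in Ly6Chi monocytes. Emcn, of endothelial cells, was at 1.06 to 2.76 TPM in eYFP- and 0.129 to 0.349 TPM in eYFP+ macrophages. Col1a1, another collagen gene, was highest in Ly6Clo replicate 3 (1.80 TPM) and at 0.309 TPM in eYFP- replicate 3, where Cxcl12 was highest. Pdgfrb, a receptor of perivascular cells, was highest in Ly6Clo replicate 1 (3.81 TPM). The sum of the 11 markers did not separate the macrophage groups (32 to 57.3 TPM in eYFP+, 31.6 to 58.1 TPM in eYFP-), since Kitl, at 10.2 to 52.5 TPM in macrophages, made up much of it. In monocytes that sum was 19.5 TPM in Ly6Chi replicate 1 and 1.68 to 12.5 TPM in the other 5 libraries. The sum without Kitl, taken after the values were seen, was 4.80 to 8.81 TPM in eYFP+ and 19.3 to 37.4 TPM in eYFP- macrophages, 19.2 TPM in Ly6Chi replicate 1 and 1.5 to 11.8 TPM in the other 5 monocyte libraries. Foxc1 was at 0.0672, 0.0883 and 0.0746 TPM in eYFP- macrophages, 0.0437 TPM in Ly6Chi replicate 1, 0.00697 TPM in eYFP+ replicate 3 and 0 elsewhere. Pdgfra was at or below 0.315 TPM everywhere, and 0 to 7 of the 11 markers were at 0 in a library. The part of stromal RNA in the Cxcl12 values was not tested.

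Cxcl16 (ENSMUSG00000018920) is made as a membrane-bound ligand of CXCR6 that also binds oxidised lipoprotein, and it is released by the proteases ADAM10 and ADAM17. It measured 44.0, 61.6 and 43.0 TPM in eYFP+ macrophages, 27.2, 36.4 and 31 TPM in eYFP- macrophages, 7.42, 5.94 and 4.99 TPM in Ly6Chi monocytes and 59.6, 92.1 and 38.6 TPM in Ly6Clo monocytes. Ly6Chi monocytes were below all others, and the eYFP+ libraries were all above the eYFP- libraries, as for 3.88% of the genes with a TPM above 0 in a macrophage library. Cxcl16 was lower in Ly6Chi than in Ly6Clo monocytes, with a log2 difference of -3.39 ± 0.37 (SE) or 10.4-fold (DESeq2 adjusted p = 1.61e-17), and 0.89 ± 0.26 higher in macrophages than in monocytes (DESeq2 adjusted p = 0.00262, lost after a correction for GC content with 0.50 and an adjusted p of 0.259). The eYFP+ minus eYFP- difference of 0.69 ± 0.37 did not pass (DESeq2 adjusted p = 0.609). In the annotation of GRCm38 Cxcl16 overlaps the exons of Zmynd15 on the opposite strand, and since use of strand in the counting is not stated, reads of the shared part cannot be assigned with certainty. Zmynd15 itself was at 8.77 TPM or less in every library.

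Neither protease of CXCL16 passed in any of the 3 comparisons. Adam10 was at 14.7 to 82.5 TPM and Adam17 at 34.9 to 88.9 TPM over the 12 libraries, with DESeq2 adjusted p from 0.0689 to 0.969 for Adam10 and from 0.18 to 0.973 for Adam17. Against Ly6Chi monocytes alone Adam17 was lower in eYFP- macrophages (log2 difference -0.71 ± 0.28, SE, with a DESeq2 adjusted p = 0.0463, edgeR adjusted p = 0.0493). Dpp4, the peptidase that trims CXCL12, CCL5 and other chemokines at their amino end, was low in macrophages. It measured 0.686, 0.276 and 0.634 TPM in eYFP+ and 2.83, 6.38 and 6.29 TPM in eYFP- macrophages, with 24.6 to 48.0 TPM in monocytes. Dpp4 was lower in eYFP+ than in eYFP- macrophages, by a log2 difference of -3.20 ± 0.41 (SE; DESeq2 adjusted p = 7.87e-12, edgeR adjusted p = 0.00671), and lower in macrophages than in monocytes, by -4.55 ± 0.28 (DESeq2 adjusted p = 1.19e-56).

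Receptors of these ligands were read beside them, from a list of 23 chemokine receptors. In macrophages minus monocytes 7 of 21 tested receptors were higher and 5 lower, in Ly6Chi minus Ly6Clo 4 of 20 were higher and 5 lower, and in eYFP+ minus eYFP- macrophages 0 of 20 were higher and 2 lower. Of all genes tested, 20.3% were higher and 15% lower in the first of these, 3.66% and 4.97% in the second, and 0.153% and 1.88% in the third. The lists' medians were 0.62, -0.47 and 0.02 on the log2 scale, beside 0.08, 0.02 and 0.05 over all genes tested. The 2 lower in eYFP+ macrophages were Ccr2 (2.07, 1.10 and 2.05 against 2.76, 8.91 and 7.67 TPM, DESeq2 adjusted p = 0.0027) and Xcr1, a receptor of dendritic cells (DESeq2 adjusted p = 0.00152). Neither passed with edgeR (adjusted p = 0.0809 for Ccr2 and 0.201 for Xcr1), which called 10, 3 and 0 of 17 receptors in the 3 comparisons.

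Ccr3, the receptor of CCL24, was the most abundant receptor in macrophages, at 780 to 1170 TPM in eYFP+ and 613 to 624 TPM in eYFP-, against 0.391 to 0.879 TPM in Ly6Chi and 5.42 to 8.29 TPM in Ly6Clo monocytes. It was 8.35 ± 0.27 (SE) higher on the log2 scale in macrophages (DESeq2 adjusted p = 2.59e-201). Ccr2, the receptor of CCL2, ran the other way, at 632 to 723 TPM in Ly6Chi monocytes, 132 to 204 TPM in Ly6Clo monocytes and 1.10 to 8.91 TPM in macrophages. Ccr1, through which CCL6, CCL9 and CCL3 act, was at 36.8 to 60.9 TPM in Ly6Chi and 5.29 to 12.1 TPM in Ly6Clo monocytes and at 0.849 to 2.55 TPM in macrophages. Its log2 difference was -3.62 ± 0.35 in macrophages minus monocytes, in the same direction as Ccl6, Ccl9 and Ccl3 (DESeq2 adjusted p = 1.72e-23).

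Cxcr4, the receptor of CXCL12, was at 1.01 to 4.67 TPM in macrophages, 8.91 to 15.7 TPM in Ly6Chi and 16.8 to 37.0 TPM in Ly6Clo monocytes (log2 difference of macrophages minus monocytes -3.07 ± 0.38, SE, with a DESeq2 adjusted p = 1.11e-14). Cxcr6, the receptor of CXCL16, was at 1.63 to 6.42 TPM in macrophages and at or below 0.758 TPM in monocytes (4.18 ± 0.79, DESeq2 adjusted p = 9.28e-07). Cxcr2 was at or below 4.95 TPM and the scavenging receptor Ackr3 at or below 0.370 TPM.

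**Figure D5:**
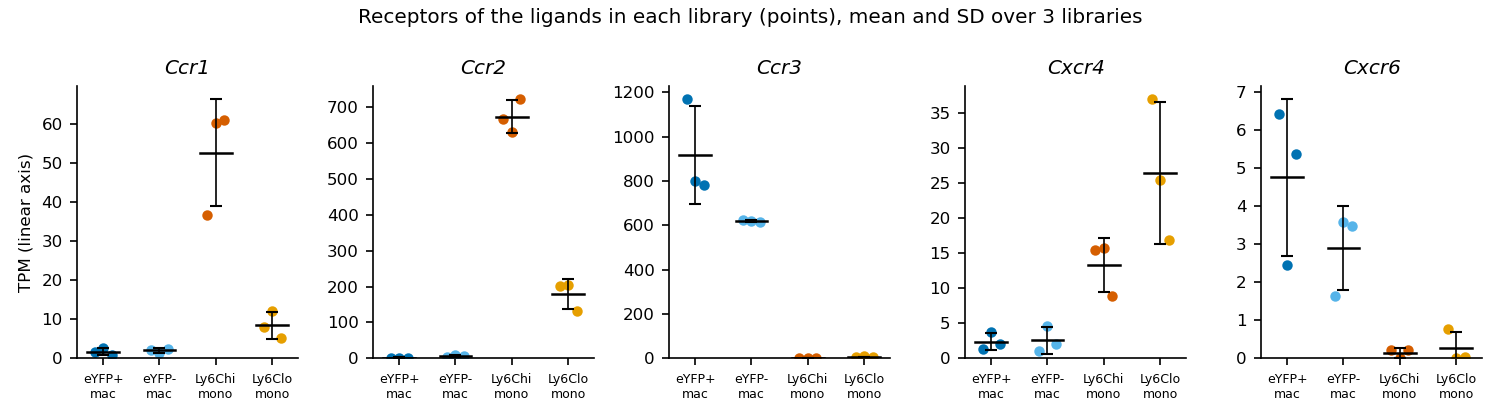
TPM of 5 receptors of the ligands (linear axes from 0, each with its own scale); points are libraries, the line is the mean and the bar 1 SD over 3 libraries. Ccr3 is high in macrophages only, at 613 to 1170 TPM, and Ccr1 and Ccr2 are highest in Ly6Chi monocytes.

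Of 28 further chemokine ligands, 16 had enough counts to be tested in these comparisons. In macrophages minus monocytes 6 were higher and 0 lower, where 20.3% of all genes were higher and 15% lower, with a list median of 1.59 on the log2 scale beside 0.08 over all genes. In Ly6Chi minus Ly6Clo monocytes 1 was higher and 5 were lower, beside 3.66% and 4.97% of all genes (median -1.08 beside 0.02), and in eYFP+ minus eYFP- macrophages 0 of 16 passed (median -0.13 beside 0.05). By edgeR 6 and 4 of 15 passed in the first and second of these and 0 in the third.

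Ccl8, a monocyte-attracting ligand, measured 244, 135 and 123 TPM in eYFP+ and 112, 59.1 and 77.1 TPM in eYFP- macrophages, with 13.4, 3 and 5.06 TPM in Ly6Clo monocytes and 0 counts in each of the 3 Ly6Chi libraries. Pf4, a CXC chemokine known from platelet granules, measured 194, 198 and 118 TPM in eYFP+ and 110, 161 and 148 TPM in eYFP- macrophages, against 67.1, 74.8 and 55.8 TPM in Ly6Clo and 2.43, 1.40 and 0.398 TPM in Ly6Chi monocytes. Both were higher in macrophages (DESeq2 adjusted p = 2.46e-28 for Ccl8 and 1.02e-31 for Pf4) and lower in Ly6Chi than in Ly6Clo monocytes (2.12e-08 and 1.45e-27). Ccl12, a CCR2 ligand, had 4.40 to 37.2 TPM in macrophages, 7.72 to 12.6 TPM in Ly6Clo and at most 0.476 TPM in Ly6Chi monocytes. Cxcl10, a ligand of CXCR3 induced by interferon, was the 1 higher in Ly6Chi, at 89.8 to 113 TPM against 11.2 to 33 TPM in Ly6Clo (DESeq2 adjusted p = 4.01e-05). The 5 megakaryocyte markers summed to 2.09 to 3.69 TPM in eYFP+ and 30.7 to 40.9 TPM in eYFP- macrophages, and their part in the Pf4 values was not tested.

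Markers of other cells and of handling moved with some of these comparisons. Of 17 genes of the early response to stress and cell isolation, 10 were lower and 3 higher in macrophages than in monocytes (15% and 20.3% of all genes), 3 of 16 were lower in Ly6Chi than in Ly6Clo monocytes (Il1b, Dusp1 and Nfkbiz, the last with an edgeR adjusted p of 0.0501), as were 4.97% of all genes, and 0 of 16 passed between the macrophage groups. Their sum was 714 to 1700 TPM in macrophages, 2330 to 2480 TPM in Ly6Chi and 2950 to 3560 TPM in Ly6Clo monocytes. Ccl3 was likewise highest in Ly6Clo, while its values in macrophages and Ly6Chi monocytes overlapped. Their part in the Ccl3 values was not tested. The sum of 10 markers of neutrophils and their precursors was 121 to 2550 TPM in macrophages and 6750 to 23700 TPM in monocytes, where Ccl6 and Ccl9 were high too. Their part in the Ccl6 and Ccl9 values was not tested.

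Between the monocyte groups 8 of 10 bone marrow macrophage markers were lower in Ly6Chi (5 with edgeR), where 4.97% of all genes were lower, among them C1qa, a complement subunit (10.6 to 18.5 against 107 to 626 TPM), and Spic, a transcription factor of marrow and splenic macrophages (4.78 to 6.26 against 35.4 to 72.3 TPM). Their sum was 498 to 564 TPM in Ly6Chi and 701 to 1710 TPM in Ly6Clo monocytes, against 25300 to 38500 TPM in macrophages. Of 5 dendritic cell markers 3 were lower in Ly6Chi (1 with edgeR), namely Zbtb46, Xcr1 and Ccr7, the last at 0 in each Ly6Chi library and at 9.13 to 51.1 TPM in Ly6Clo. The dendritic markers summed to 19.3 to 31.2 TPM in Ly6Chi and 22.5 to 107 TPM in Ly6Clo. The markers of both lists that passed lay in the same direction as Ccl4, Ccl5, Cxcl16, Ccl8 and Pf4, and their part in those values was not tested.

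In eYFP+ minus eYFP- macrophages markers of other cells that passed were lower in eYFP+, as were 1.88% of all genes against 0.153% higher: 3 of 10 of neutrophils, 1 of 6 of eosinophils, basophils and mast cells, 1 of 4 of megakaryocytes, 1 of 6 of erythroid cells, 2 of 5 of dendritic cells (Xcr1 among them) and 1 of 8 of monocytes (Ccr2). With edgeR 1 marker passed over all the marker lists, Nkg7. None of 4 B cell, 9 stromal and endothelial or 10 bone marrow macrophage markers passed. In macrophages minus monocytes all 10 bone marrow macrophage markers were higher. Of 8 monocyte markers tested, 7 were lower and 1 was higher. Of all genes, 20.3% were higher and 15% lower in that comparison. The sums in eYFP+ and eYFP- macrophages were 12.2 to 20.1 and 252 to 1320 TPM for the eosinophil, basophil and mast cell list, 6940 to 11900 and 17500 to 28500 TPM for the erythroid list, 2.33 to 19.4 and 14.8 to 30.9 TPM for the dendritic list, and 470 to 701 and 456 to 584 TPM for the B cell list.

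For the 8 ligands with a mean of at least 100 normalized counts, which leaves out Ccl24 and Cxcl2, the most alike genes were sought among 11649 genes past the same mean, by Pearson r of log2(normalized count + 1) over the 12 libraries, which share 4 groups and their depth. Ccl9 was most like Adora2b (r = 0.996), an adenosine receptor at 31.2 to 82.0 TPM in monocytes and at most 1.26 TPM in macrophages. Ccl6 was most like Arhgap9 (r = 0.986), and Ccl6 and Ccl9 had r = 0.905 with each other. Cxcl16 and Ccl4 had r = 0.92 with each other, and Cd83, a surface protein of activated antigen-presenting cells, was among the 3 genes most alike both (r = 0.967 and 0.963). Ccl5 was most like Ltb, lymphotoxin beta (r = 0.951). Cxcl12 was most like Fbln5 and Sparc (r = 0.898 and 0.897), which encode matrix proteins. Ccl2 was most like Ifi213 (r = 0.905) and Ccl3 most like Pan3 (r = 0.929).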

How the data were processed

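Polyadenylated RNA of sorted bone marrow cells was turned into amplified cDNA, tagmented and sequenced. Per the study's methods and the labels, the authors made the deposited counts with featureCounts on GRCm39, as read pairs assigned to 1 gene; use of strand and molecular identifiers is not given in the sources used here, so reads were not taken as independent molecules. The authors also deposited TPM, counts scaled by gene length and library sum, used here to compare levels between genes. A table of variance-stabilised values was not used.

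The members and all lists were chosen with earlier results of these data known. Groups came from the labels. Symbols came from a GENCODE table (91.4% of identifiers matched). Counts of 26390927 to 48618187 per library were tested in 1 fit of the 12 libraries with DESeq2 1.42.0 (R 4.3.3, Wald tests, median-of-ratios factors, independent filtering at 0.05), the tool the study's methods name; normalized counts are counts divided by the size factor. edgeR 4.0.16 (quasi-likelihood) and limma 3.58.1 were alternatives. The scripts were tested on simulated counts with the dispersions of these libraries, where DESeq2 made many more false calls than edgeR. Named beyond the members were the receptors and proteases of the ligands and, in each list, at most 3 genes of lowest adjusted p in a comparison (adjusted p under 0.05, mean of at least 50 normalized counts); other list genes given beside a ligand, Zmynd15 and Cxcl10 were chosen after their values were seen. Values of some list genes are not reported here.

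Alternatives were another scaling (TMM, total count), DESeq2 run without independent filtering, without Cook's cutoff or with at least 10 counts asked of 3 libraries, a replicate block, a fit of the compared groups alone, limma on log2(TPM + 1) or log2(TPM + 0.1), a fold of at least 2, a correction for transcript GC content (known for 96.4% of tested genes) and leaving out each library.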

Additional observations from a re-analysis of the deposited data

How the results depend on the processing

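Over 27 alternatives the number of ligands called was 3 to 5 between the monocyte groups (4 as reported), and over 26 it was 5 to 7 in macrophages minus monocytes (6 as reported), where the fit on the compared groups alone is the reported fit. In eYFP+ minus eYFP- macrophages, with 1 as reported, it was 0 with edgeR, with edgeR and the replicate block, and with the correction for GC content with or without the block, 2 in the fit on the macrophage libraries alone, and 0 to 2 on leaving out 1 library: 0 without eYFP+ replicate 2 or eYFP- replicate 3, and 2 without Ly6Chi replicate 1. Calls over all genes in that comparison were 439 as reported, 64 with edgeR, 1155 with the replicate block (444 with the block and a minimum of 10 counts), 24 with edgeR and the block, 983 with the GC correction and the block, and 686 on the macrophage libraries alone. In Ly6Chi minus Ly6Clo they were 1860, and 829 with edgeR, 521 with edgeR and the block, and 1191 on the monocyte libraries alone.

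Of the single ligand values, those that turned sign were not called as reported. In eYFP+ minus eYFP- macrophages Ccl3 went to -0.10 with total-count scaling, which shifts the median of all genes from 0.0392 to -0.065, and Cxcl2 to -0.00897 and -0.58 with limma on log2(TPM + 1) and log2(TPM + 0.1). On leaving out 1 library Ccl2 ran from -0.36 to 1.12, Ccl3 from -0.30 to 1.11 and Cxcl2 from -0.46 to 0.74. In Ly6Chi minus Ly6Clo Cxcl12 went to -0.54 with the replicate block (also with a minimum of 10 counts), -0.49 with edgeR and the block, -0.79 and -1.33 with limma at either pseudocount and -0.74 with the GC correction and the block. On leaving out 1 library it ran from -3.84 to 0.87, and Ccl6 ran from -0.38 to 0.29. In macrophages minus monocytes Ccl2 went to -0.22 with the GC correction and the block and ran from -0.23 to 0.47 without 1 library. Ccl24 lost its call there with edgeR and the block (adjusted p = 0.09) and Cxcl12 gained one with the block (DESeq2 adjusted p = 0.0267, or 0.0179 with the 10-count minimum), with limma on log2(TPM + 1) (adjusted p = 0.0464) and with the GC correction and the block (DESeq2 adjusted p = 0.0487). Ccl5 gained one there with the GC correction (DESeq2 adjusted p = 0.0472), and Ccl9 gained one in Ly6Chi minus Ly6Clo with the block and the 10-count minimum (DESeq2 adjusted p = 0.0284). Apart from the cases given, the cause of these changes was not tested.

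Deviations of same-numbered libraries correlated at 0.148, 0.0675 and 0.0445 between the macrophage groups and 0.0444, -0.0182 and -0.00997 between the monocyte groups, so the numbers were not taken to pair the samples. Of 6 libraries each, 5 macrophage and 2 monocyte libraries correlated best with their own number in the other group. Cxcl2, with 0 to 40 counts a library, had the widest standard errors of the ligands in the 3 comparisons.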
